A study of Mus musculus with 2 samples.

Results

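The miR-29 family is encoded in the mouse by 4 genes, Mir29a, Mir29b-1, Mir29b-2 and Mir29c, chosen here by gene symbol from the 1973 miRNA genes of the count tables. All 4 had reads, and 3 of them were among the 294 genes that reached 10 counts in each of the libraries, called detected below. Small RNA under 30 nucleotides was sequenced from the thymus of 2 newborn pups (postnatal day 0, strain B6NCrl, both lobes per pup, sex not recorded), with 1 library per pup: replicate 2 from pup 3 and replicate 1 from pup 2 of the same pregnancy. Both libraries belonged to 1 group, so there is no contrast between conditions, and the labels carry the same donor identifier for both, state no purpose and name no batch. With 1 library per pup, differences between pups, dissections and library preparations cannot be told apart. Replicate 2 had 1289151 reads and replicate 1 had 2734133 reads counted on the sense strand of miRNA genes, and levels are given in CPM, counts per 1000000 of these reads, with the SD over the 2 libraries (n = 2).

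A miRNA hairpin is cut into a short duplex, and 1 arm of it is usually loaded into Argonaute, where bases 2 to 8, the seed, pair with messenger RNAs and lower their output. The miR-29 family acts mainly through its 3p arms, and is known for repressing collagens, DNA methyltransferases and, in T cells, the transcription factors Tbx21 and Eomes. In the mouse thymus, miR-29a of epithelial cells is known to dampen the response to interferon by lowering the interferon receptor Ifnar1, and mice without the Mir29a and Mir29b-1 locus have a thymus that shrinks readily. Aire, a regulator in medullary epithelium, turns on tissue antigens for the deletion of self-reactive T cells, and loss of miR-29a there is known to lower the expression of genes that depend on Aire. Messenger RNAs were not measured in these libraries, so the levels of Aire and Ifnar1 were not analysed here. The libraries are of the whole organ, in which fewer cells of a type and less RNA per cell cannot be told apart.

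The mature sequences decide which reads can be placed at which gene, and are shown for that reason with the seed in capitals (RefSeq, GRCm38.p6, 5′ to 3′). The 3p arms of the 4 genes form 3 sequences.
miR-29a-3p: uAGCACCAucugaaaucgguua
miR-29c-3p: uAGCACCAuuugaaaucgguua
miR-29b-3p: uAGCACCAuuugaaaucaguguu
All 3 carried the seed AGCACCA, which no other gene held among the 1674 distinct mature sequences of the table. Counted from the 5′ end, miR-29c-3p differed from miR-29a-3p by C10U alone. From miR-29c-3p to miR-29b-3p the first 22 bases differed by G18A, U21G and A22U. The sequence of miR-29b-3p was present at both Mir29b-1 and Mir29b-2, whereas miR-29a-3p and miR-29c-3p were each present in 1 hairpin. The 5p arms, which are the less abundant strand of this family as a rule, differed between all 4 genes, and those of the miR-29b hairpins are shown because only this arm tells these loci apart as mature RNA.
miR-29b-1-5p: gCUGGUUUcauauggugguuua
miR-29b-2-5p: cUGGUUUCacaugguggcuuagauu
The annotated starts of these 5p arms are offset by 1 base within a shared stretch, so their seeds differed from each other. Both seeds differed from AGCACCA. Between the hairpins of Mir29b-1 and Mir29b-2 the longest identical stretch was 25 bases and covered the 3p arm. It was 22 bases between Mir29b-1 and Mir29c, 19 between Mir29b-2 and Mir29c and 14 between Mir29a and Mir29c. No window of 20 bases of the Mir29a hairpin was present in another RefSeq hairpin, against 3 of 69 windows in Mir29c, 9 of 52 in Mir29b-1 and 6 of 62 in Mir29b-2.

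The genes lie as head-to-tail pairs in 2 loci of build GRCm38. Mir29a (ENSMUSG00000065610.1, 31062660 to 31062747) and Mir29b-1 (ENSMUSG00000065604.1, 31063023 to 31063093) lie on the minus strand of chromosome 6 with 275 bases between them. In GENCODE M21, Mir29a overlapped no other gene, and Mir29b-1 shared 2 bases with an exon of the long noncoding RNA Gm27019 on the same strand. Mir29b-2 (ENSMUSG00000065412.2, 195037040 to 195037120) and Mir29c (ENSMUSG00000065548.1, 195037547 to 195037634) lie on the plus strand of chromosome 1 with 426 bases between them, inside an exon of 1 of 4 transcripts of the noncoding RNA A330023F24Rik. An exon of 1 of 4 transcripts of Cd46, a gene of complement regulation, runs over both on the opposite strand. None of the 4 genes had a read on the opposite strand in either library, which allows at most 2.33 CPM in replicate 2 and 1.10 CPM in replicate 1 (3 counts, counting error only), and 272 of the 294 detected genes (92.5%) likewise had none.

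**Figure D1:**
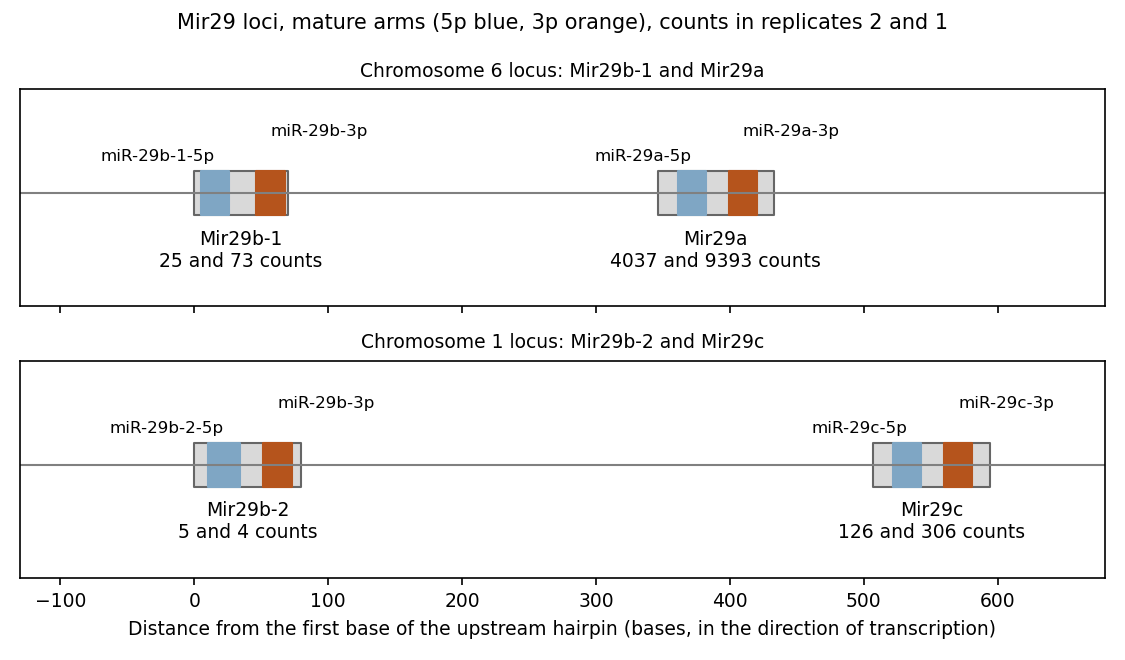
Map of the 2 Mir29 loci, drawn to scale from the first base of the upstream hairpin in the direction of transcription, with hairpins in grey, 5p arms in blue and 3p arms in orange. Counts in replicate 2 and replicate 1 stand under each hairpin and are highest for Mir29a, with 4037 and 9393, and lowest for Mir29b-2, with 5 and 4.

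To show what the shared seed can pair with, the match of the seed, TGGTGCT, was searched on the sense strand of the longest annotated 3′ UTR of each gene with protein-coding transcripts in GENCODE M21. It was present in 2755 of 21022 genes (13.1%). Of 8 genes named in the literature as miR-29 targets or as part of its role in the thymus, 6 held it. Since these genes were listed for that reason, the count is a description only. Dnmt3a, a DNA methyltransferase, held 5 matches, and Dnmt3b, Tbx21, Eomes, Col1a1 and Col3a1 held 1 each. The 3′ UTR of Dnmt3a has 6696 bases, against a median of 961 over all genes searched. The share over all genes was not matched for length. A site of Col1a1, a collagen chain made by mesenchymal cells, and the site of Tbx21, the transcription factor T-bet, are shown with the match in capitals.
Col1a1: aaggaatttcTGGTGCTatagaagctg
Tbx21: gtcacgaaccTGGTGCTgcttctgacc
The 3′ UTR of Ifnar1 (2030 bases) and that of Aire (343 bases) held none, which says only that these 7 letters are not in these windows.

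Mir29a carried nearly all counted reads of the family. It had 4037 counts in replicate 2 and 9393 in replicate 1, or 3132 and 3435 CPM, with a mean of 3283 CPM ± 215. The 95% Wilson intervals, which cover counting error only, were 3037 to 3229 CPM and 3367 to 3506 CPM. They did not overlap, with replicate 1 the higher. Mir29c, the partner gene of the chromosome 1 locus, had 126 and 306 counts, or 97.7 and 112 CPM, with a mean of 105 CPM ± 10.03. Its intervals, 82.1 to 116 and 100.1 to 125 CPM, overlapped.

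Both miR-29b genes had low counts, and Mir29b-2 was close to the lower end of the measurable range. Mir29b-1 had 25 counts in replicate 2 and 73 in replicate 1, or 19.4 and 26.7 CPM, with a mean of 23.0 CPM ± 5.17. Mir29b-2 had 5 and 4 counts, or 3.88 and 1.46 CPM, with a mean of 2.67 CPM ± 1.71, and was not detected by the threshold of 10 counts. Its Wilson intervals of 1.66 to 9.08 CPM in replicate 2 and 0.569 to 3.76 CPM in replicate 1 reached below the floor of 3 counts in each library, so its level is not told apart from that floor. The order Mir29a, Mir29c, Mir29b-1, Mir29b-2 held in both libraries, and the values of no 2 members overlapped between libraries.

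**Figure D2:**
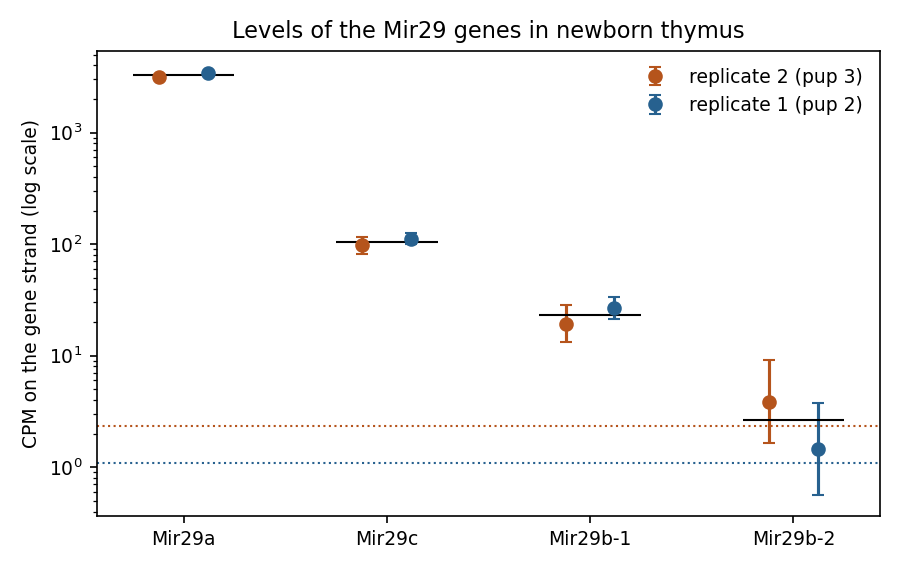
Level of each Mir29 gene in CPM on a log axis, with 1 point per library, its 95% Wilson interval as the bar and the mean as a black line. Dotted lines mark the level of 3 counts in each library, 2.33 CPM in replicate 2 and 1.10 CPM in replicate 1. Mir29a at 3132 and 3435 CPM stands far above Mir29c, and Mir29b-2 lies at the floor.

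As a share of the family, Mir29a took 96.28% of the counts in replicate 2 and 96.08% in replicate 1, Mir29c took 3.005% and 3.130%, Mir29b-1 took 0.596% and 0.747%, and Mir29b-2 took 0.119% and 0.0409%. Mir29a exceeded Mir29c by 32.0 times in replicate 2 (exact 95% counting interval 26.8 to 38.6) and by 30.7 times in replicate 1 (27.4 to 34.5), a mean ratio of counts of 31.37 ± 0.9501. Both hairpins are 88 bases long, so the ratio per base is the same. Summed over each locus, the Mir29a and Mir29b-1 locus exceeded the Mir29b-2 and Mir29c locus by 31.0 times (26.1 to 37.2) and 30.5 times (27.3 to 34.3), with a mean of 30.8 ± 0.334.

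Within each locus the miR-29b gene had far fewer counts than its partner. Mir29a exceeded Mir29b-1 by 161 times in replicate 2 (109 to 250) and by 129 times in replicate 1 (102 to 164), a mean ratio of counts of 145 ± 23.2, or 117 per hairpin base. Mir29c exceeded Mir29b-2 by 25.2 times (10.5 to 79.0) and 76.5 times (29.6 to 283), with a mean of 50.9 ± 36.3 that rests on 5 and 4 counts of Mir29b-2. Mir29b-1 exceeded Mir29b-2 by 5.00 times (1.88 to 16.7) and 18.2 times (6.83 to 68.8). The intervals of the last pair overlapped between the libraries and were too wide to give the ratio of these loci.

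The counts of the miR-29b genes do not measure mature miR-29b. The tables tally reads that map to several places apart from the genes, at 2813125 reads in replicate 2 and 5993141 in replicate 1, or 2.18 and 2.19 reads per counted read. A full-length read of miR-29b-3p matches both loci and belongs to that tally, whereas the full 5p arms, miR-29a-3p and miR-29c-3p each match 1 RefSeq hairpin. The tables do not say how many of the tallied reads were miR-29b-3p, and the part of this tally in the low counts of Mir29b-1 and Mir29b-2 was not tested. The counts are per hairpin and do not separate the arms.

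Loci that share a mature sequence had both low and high counts in these libraries. Of 916 counted genes matched to RefSeq mature sequences by symbol, 87 shared at least 1 mature sequence with another gene, and 36 of these (41.4%) were detected, against 233 (28.1%) of the 829 that shared none. Among detected genes, the median level was 127 CPM with a shared sequence and 312 CPM without. The 87 were of opposite kinds: 4 of the 34 genes with every mature sequence shared (11.8%) and 32 of the 53 with 1 of 2 shared (60.4%), the class of both miR-29b genes, were detected. Among 14 pairs of numbered loci picked by name, which are not all such pairs, the miR-29b pair had the rank 12 by summed level, with 25.7 CPM ± 3.46. The pairs of miR-199a (13.0 CPM ± 1.34) and miR-218 (7.81 CPM ± 4.47) had less, and those of miR-19b (68.6 CPM ± 5.94) and miR-26a (88.7 CPM ± 17.9) had the next higher sums. The pairs of miR-181a (36829 CPM ± 734) and miR-16 (20763 CPM ± 1066) also share 1 of 2 mature sequences and had high counts. Which arm these counts came from is not known. Over all 18 pairs of counted loci numbered 1 and 2 that share a mature sequence in the RefSeq table and had at least 10 summed counts in each library, a set made after the values were seen, the miR-29b pair had the rank 17. The locus with more counts exceeded the other by over 2 times in mean CPM in 15 of the 18, among them the miR-29b pair at 8.63 times, and by less in the pairs of Mirlet7c-1 (1.81 times), Mir450-1 (1.37 times) and Mir138-1 (1.09 times).

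**Figure D3:**
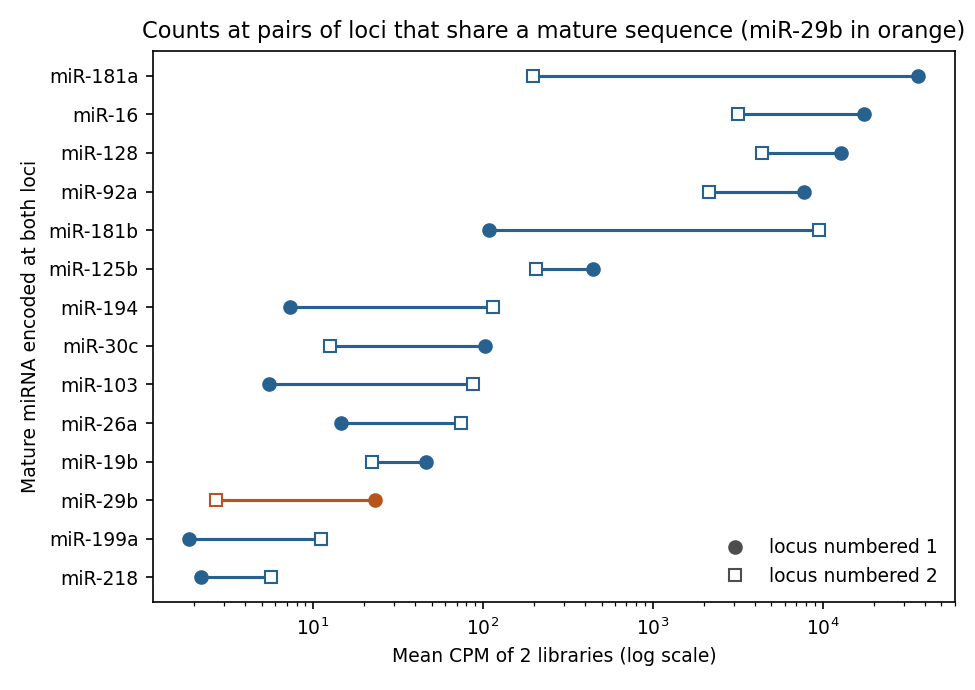
Mean CPM of 2 libraries, on a log axis, at 14 pairs of loci picked by name that encode the same mature miRNA, with a filled circle for the locus numbered 1 and an open square for the locus numbered 2, ordered by the summed level. The miR-29b pair in orange, with Mir29b-1 at 23.0 CPM and Mir29b-2 at 2.67 CPM, is the third from the bottom.

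Mir29a had the rank 59 of the 294 detected genes by mean CPM, with the rank 62 in replicate 2 and 56 in replicate 1. The most abundant gene, Mirlet7g, of the let-7 miRNAs of differentiating cells, exceeded it by 20.6 ± 1.33 times. The genes next to Mir29a in level were Mir155 (3513 CPM ± 394), a miRNA of activated lymphocytes, and Mir149 (3404 CPM ± 335) above it, and Mir16-2 (3178 CPM ± 84.5) and Mir342 (3168 CPM ± 147) below it. Mir29c had the rank 183, between Mir204 (107 CPM ± 4.44) and Mir208b (103 CPM ± 115), a miRNA of heart and slow muscle, with Mir181b-1 and Mir30c-1 the next on either side. Mir29b-1 had the rank 239, next to Mir34b (23.1 CPM ± 4.68) and Mir184 (22.9 CPM ± 1.71), with Mir452 and Mir499 beyond. The 2 values of each of these 12 neighbours overlapped the range of the member beside it, so their order is not told apart. The likeness is in mean level over 2 libraries and says nothing of shared function.

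**Figure D4:**
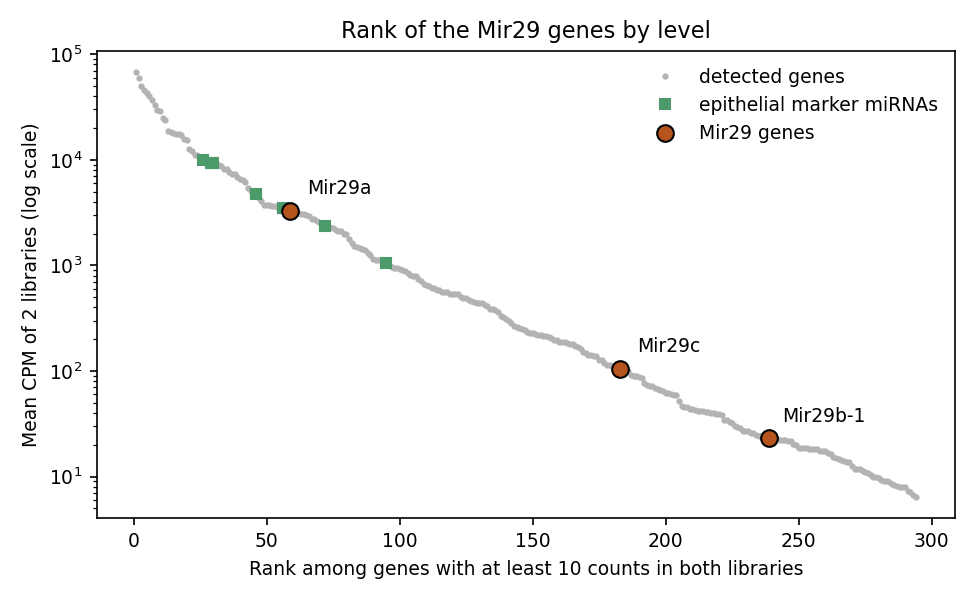
Mean CPM on a log axis against the rank of the 294 detected genes, with the 3 detected Mir29 genes in orange and 7 epithelial marker miRNAs as green squares. Mir29a at rank 59 lies among the epithelial markers, as do markers of other cell types that are not set apart here. Mir29c at rank 183 and Mir29b-1 at rank 239 lie below all 7.

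The level of Mir29a was of the order of miRNAs that mark thymic and other epithelium, all 7 of which were detected. It was likewise of the order of some markers of other cell types, given below. Mir29a over Mir205, which marks stratified epithelia and the thymic epithelium, was 0.334 ± 0.0471, and it was 0.356 ± 0.0362 over Mir200c and 0.354 ± 0.0507 over Mir429, both of the miR-200 family that maintains the epithelial state. It was 0.712 ± 0.164 over Mir200b, of the same family. It was 0.931 ± 0.0169 over Mir203, a miRNA of epidermal differentiation, and 1.41 ± 0.149 and 3.12 ± 0.379 over Mir141 and Mir200a. As a group, the Mir29 genes took 0.325% of the counts in replicate 2 (Wilson interval 0.316 to 0.335) and 0.358% in replicate 1 (0.351 to 0.365), a mean of 0.341% ± 0.0228. This was 0.0851 ± 0.00717 times the share of the epithelial list, 4.06% in replicate 2 and 3.97% in replicate 1.

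Markers of the other cell types of the organ were present too, so these levels do not place miR-29 in a cell type. Mir29a was 0.937 ± 0.0439 times Mir155, 1.04 ± 0.0197 times Mir342 and 1.60 ± 0.36 times Mir150 of the lymphocyte list. It was 1.65 ± 0.223 times Mir145a of the smooth muscle list. The other genes of these lists lay further from it, such as Mir181a-1 (0.0896 ± 0.00383) and Mir143 (0.0673 ± 0.0179). The Mir29 share was 0.0750 ± 0.00326 times that of 5 counted thymocyte and lymphocyte miRNAs (4.48% in replicate 2 and 4.63% in replicate 1, mostly Mir181a-1), 0.0660 ± 0.0174 times that of 5 mesenchymal and smooth muscle miRNAs (6.06% and 4.57%, mostly Mir143) and 0.107 ± 0.0285 times that of the endothelial Mir126a (3.73% and 2.80%). It was 4.01 ± 0.170 times that of the myeloid Mir223 and 17.4 ± 2.79 times that of the red blood cell miRNAs Mir451a and Mir144. It was 6.42 ± 1.74 times that of the skeletal muscle and heart list, of which Mir133a-1 and Mir1a-1 were at 0. Both of these are known to have a second locus with the same dominant mature sequence, so their 0 is no measure of these miRNAs, and the ratio rests on Mir206 and Mir208b. A like limit holds in the other lists for Mir199a-1 and Mir199a-2, which share both mature sequences with each other. It also holds for Mir181a-1 and Mir181b-1, which each share 1 of 2 with another locus. Mir142, a miRNA of blood cells, had no value of its own: it lies opposite the counted gene Mir142b, whose opposite strand held 178605 reads in replicate 2 and 387318 in replicate 1, so the lymphocyte list is without it. Between the libraries, the mesenchymal, endothelial and muscle and heart shares (the last 0.0627% in replicate 2 and 0.0467% in replicate 1) were higher in replicate 2, where the Mir29 share was lower. In the muscle and heart list this came from the heart miRNA Mir208b alone, with 185 CPM in replicate 2 and 21.9 CPM in replicate 1. Mir206 of the same list had 442 and 445 CPM. The myeloid share (0.0787% and 0.0919%) and the red blood cell share (0.0168% and 0.0231%) were lower in replicate 2, as was the Mir29 share. So was the thymocyte and lymphocyte share (4.48% and 4.63%), whereas the epithelial share (4.06% and 3.97%) was higher. The red blood cell difference lay mostly in Mir451a (82.2 and 144 CPM), with Mir144 at 85.33 and 87.05 CPM. The part of cell composition in the level of Mir29a was not tested.

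Set against families picked by name, the Mir30, the Mir181 and the Mir23, Mir27 and Mir24 genes, the Mir29 genes had a smaller share. More of it was in 1 gene. The 6 Mir30 genes took 16.7 ± 0.0653 times the Mir29 share, the 6 Mir181 genes 17.6 ± 0.0407 times, and the 5 counted genes of the Mir23, Mir27 and Mir24 clusters 14.0 ± 1.27 times. The leading gene held 96.2% ± 0.140 of the counts in the Mir29 family, against 75.7% ± 1.32 for Mir30e, 61.0% ± 2.56 for Mir181a-1 and 49.6% ± 0.771 for Mir23a in theirs. These shares are of counted reads, and each of the families has genes whose mature sequence is shared between loci. No test was run between families, since both libraries are of 1 group. Neither trait is particular to Mir29 in these libraries. Mir26b had 59990 CPM, against 74.0 CPM for Mir26a-2 and 14.7 CPM for Mir26a-1. Mir148a, Mir148b and Mir152, of 1 seed family, had 1624, 533 and 212 CPM, against 3283 CPM for Mir29a.

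By counting error alone, the difference between the 2 libraries had a narrow interval for Mir29a and wider ones for the other members. On the log2 scale, scaled by TMM, the ratio of replicate 2 over replicate 1 was -0.20 for Mir29a (exact 95% interval -0.25 to -0.15), -0.26 for Mir29c (-0.57 to 0.04) and -0.53 for Mir29b-1 (-1.245 to 0.145). The 3 ratios were below 0, as were those of 157 of all 294 genes. Their median was -0.26, against -0.03 over all 294 genes. In the exact binomial test with Benjamini-Hochberg adjustment over these genes, Mir29a was lower in replicate 2 (adjusted p = 6.24e-13) and Mir29c (0.176) and Mir29b-1 (0.232) did not pass. That is 1 of 3 members, where 128 of 294 genes (43.5%) passed in either direction and 69 (23.5%) were lower in replicate 2, so the share among the members is near that of all genes.

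The test compares 2 libraries by counting error alone and has no replicate check. Without regard to sign, the log2 ratio of Mir29a was larger than that of 141 of the 294 detected genes, that of Mir29c larger than that of 169 and that of Mir29b-1 larger than that of 248. The interval of Mir29b-1 includes both 0 and a fall beyond 1 on the log2 scale. A negative binomial test in edgeR, with the spread (biological coefficient of variation 0.154) estimated from the same 2 libraries, gave an adjusted p of 1 for Mir29a and called 1 gene of 294, with 15 at an unadjusted p under 0.05. That spread is the difference under test, so few calls were built into it and they say nothing of whether the pups differ. Mir29b-2 was left out of the main test for its low counts. Its log2 ratio of 1.34 rested on 5 and 4 counts (-0.88 to 3.67).

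**Figure D5:**
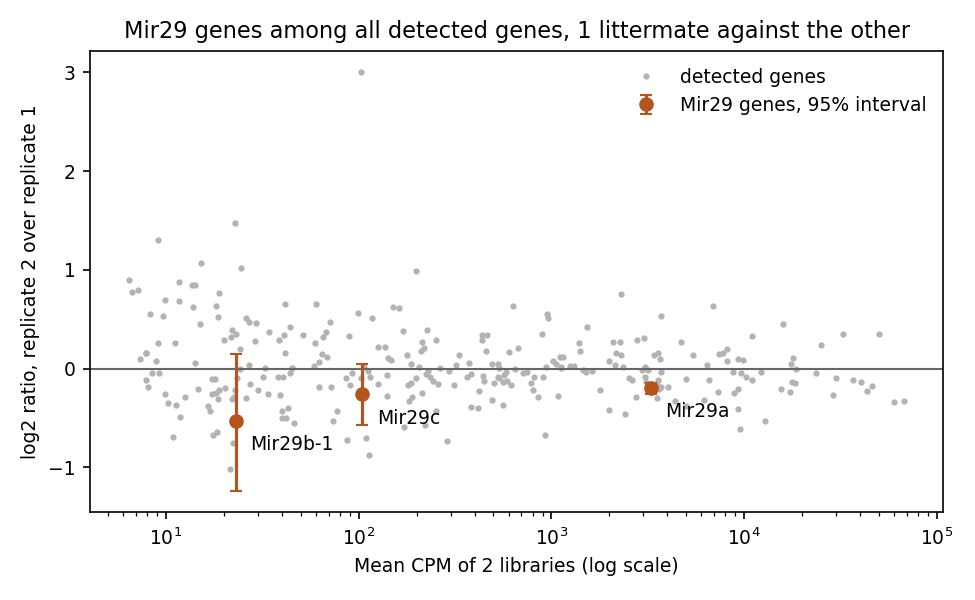
The log2 ratio of replicate 2 over replicate 1 against mean CPM (log axis) for the 294 detected genes in grey and the 3 detected Mir29 genes in orange with exact 95% intervals. Mir29a at -0.20 has a narrow interval below 0, and those of Mir29c and Mir29b-1 include 0.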

How the data were processed

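MicroRNA libraries were made from the thymus of 2 newborn littermates. Per the deposited text files, the authors mapped reads to mm10 and made raw read counts per gene over GENCODE M4, in 1 table per library. For the aligner and counter, no name is given in the sources used here. The 3 unnamed count columns are, from the values, both strands, the gene strand (used here) and the opposite strand. Totals of unmapped, multimapping (57.5% of replicate 2 and 56.3% of replicate 1) and unannotated reads name no gene and were left out. Replicate 2 covered 4892171 reads and replicate 1 10642220. The libraries are not copies (chi-square 27452, 683 degrees of freedom).

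Of 1973 identifiers, 1894 matched GENCODE M21, a later release than M4, by identifier without version. CPM was taken over the gene-strand total. The exact binomial test (two-sided, with TMM effective library sizes) was run on genes that reached 10 counts in each library (edgeR 4.0.16, R 4.3.3; scipy 1.17.1, Python 3.11.15), adjusted by Benjamini-Hochberg at 0.05 over all 294. With 1 group there is no term for a quasi-likelihood fit. The test was checked on counts simulated with counting error alone, so the check does not cover libraries that differ by more than counting error. The negative binomial test used edgeR's common dispersion. DESeq2 1.42.0 size factors were an alternative. Intervals are 95% and cover counting error only, since no molecular identifiers are described. Named genes were the members, the 2 detected genes above and below each in mean CPM, the most abundant gene, marker miRNAs and pairs of numbered loci. Of the pairs picked by name, that of miR-24 was left out, since only Mir24-2 was matched in the tables. Pairs not picked by name were added after the values were seen. Members and lists were chosen with earlier results of these data known. Hairpins were aligned with Biopython 1.88.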

Additional observations from a re-analysis of the deposited data

How the results depend on the processing

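The order of the 4 genes held with either library alone. The ratio of Mir29a to Mir29c was then 30.7 to 32.0, and that of the 2 loci 30.5 to 31.0. Leaving out 1 of 2 libraries always moves a mean by less than the SD. Unstranded counts left both ratios unchanged, since no member had a read on the opposite strand. These alternatives therefore could not show how firm the ratios are. Levels moved with the library total: with unstranded counts, and equally with both strands as the total, Mir29a had 2808 CPM, Mir29c 89.6 CPM and the family 0.292%. The reads opposite Mir142b were 82.8% of the opposite-strand total in replicate 2 and 82.7% in replicate 1. Without the most abundant gene in the total, Mir29a had 3524 CPM and the family 0.366%. With either library alone, Mir29a ranged from 3132 to 3435 CPM, Mir29c from 97.7 to 112, Mir29b-1 from 19.4 to 26.7, Mir29b-2 from 1.46 to 3.88 and the family from 0.325% to 0.358%. The rank of Mir29c was 193 with unstranded counts. Without genes that carry a copy number, other than the members, the ranks were 53 for Mir29a, 162 for Mir29c and 212 for Mir29b-1 (240 among all 1973 genes). The log2 ratio of Mir29a ran from -0.22 to -0.13 over the scalings and filters, with adjusted p from 6.93e-15 to 3.07e-06 in the exact binomial test. It was -0.20 with an adjusted p of 1 in the negative binomial test, which called 1 gene in place of 128 with a spread taken from the difference itself. The scalings and filters called 115 to 131 genes. Scaled to total counts, 72 were higher and 52 lower in replicate 2, against 59 and 69 with TMM, and Mir29c and Mir29b-1 did not pass under any setting. With 100 counts required in both libraries, Mir29b-1 could not be tested. With 1 count required in either library, Mir29b-2 was tested too and did not pass, at a log2 ratio of 1.32. No paired analysis was possible because the 2 libraries form 1 group. Depth limits Mir29b-2, at 5 and 4 counts, most.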
